A study of Mus musculus with 9 samples.

Results

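The annexins are a family of cytosolic proteins that bind acidic phospholipids in a calcium-dependent manner. Here, 8 mouse annexin genes (Anxa1, Anxa2, Anxa3, Anxa4, Anxa5, Anxa6, Anxa7 and Anxa11) were followed across yNSCs, native NSCs and neurons, taking every array probe set that the array annotation assigned to a single one of these symbols. Of these 8 genes, 7 had such a probe set, with 17 annexin probe sets among the 34945 that carried a single symbol, and 7 of the 18193 genes tested were therefore annexins of this set. The only probe set that carries the symbol Anxa11, which encodes an annexin that tethers RNA granules to lysosomes and binds S100a6, also carries 2 further symbols, Gm2260 and Gm2274, and so gives no value for Anxa11.

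RNA was hybridised to 9 Affymetrix arrays, 3 each from yNSCs, NSCs and neurons, and the labels call replicates A, B and C biological replicates. yNSCs were murine neural stem cells derived from cortical neurons after inducible expression of wild-type YAP under doxycycline control, and they were grown in NSC medium with EGF and bFGF. Per the methods, neurons came from late embryos or newborn pups, YAP and the transactivator rtTA were delivered to them by lentivirus, and yNSCs were passaged without doxycycline and could grow out clonally. NSCs were murine neural stem cells grown in the same medium, and neurons were primary murine cortical neurons kept in neuron medium with AraC, which kills dividing cells. For the arrayed samples, the sources used here did not give which of these ages was used, the strain, passage, pooling of animals or number of clones, or whether the neurons carried the lentiviral vectors. YAP is a coactivator that reaches DNA through the TEAD factors and is restrained by the Hippo pathway.

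Annexins share a conserved core that docks on membranes when calcium rises, whereas the amino-terminal head differs between members and carries the sites for S100 proteins and other partners. They organise membrane microdomains, act in exocytosis and endosome traffic, and gather at torn plasma membrane during repair. In the brain, Anxa1 and Anxa2 are known mainly from glia, microglia and vessels rather than from neurons.

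Before the annexins were compared, the arrays were checked. Across the 18193 genes, arrays of one group correlated at 0.992 or above (Pearson), and arrays of different groups at 0.960 or below. NSC replicate A stood apart: 162 of its genes departed more than 2-fold from its group, whereas no other array exceeded 30. Array medians lay between 4.90 and 5.01. The mean lower quartile was 3.54, and a group mean under it is called near background. Neuronal markers sat in the neurons as labelled. All 5 of them (Tubb3, Map2, Rbfox3, Syt1 and Snap25) were lower in yNSCs and in NSCs than in neurons (27.9% and 34.1% of all genes). Their summed level (log2 of the summed linear values) was 9.82 to 10.15 in yNSCs, 11.57 to 11.72 in NSCs and 14.28 to 14.37 in neurons. Of 5 neural stem cell markers (Nes, Sox2, Vim, Fabp7 and Prom1), 4 were higher than in neurons in yNSCs and in NSCs (34.6% and 33.3% of all genes). Fabp7 did not pass in either, but was lower in yNSCs than in neurons without NSC replicate A. The summed level of these 5 was 14.70 to 14.72 in yNSCs, 14.71 to 14.87 in NSCs and 13.98 to 14.06 in neurons. In bulk RNA, a change in the share of cells that express a gene cannot be told apart from a change in RNA per cell. Values are log2 RMA summaries and cannot be compared between genes, because each probe set has its own affinity, so every level below is set only against the same gene in the other groups. A two-sided exact permutation test of 3 against 3 arrays has a smallest p of 0.1, so calls rest on limma's moderated test over all 18193 genes, at a Benjamini-Hochberg adjusted p under 0.05.

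All 7 measured members were called higher in yNSCs than in neurons and 0 were called lower, whereas among all genes 34.6% were called higher and 27.9% lower. Their median difference was 1.92 on the log2 scale, against -0.01 over all genes. In native NSCs, 3 of the 7 members (Anxa2, Anxa3 and Anxa6) were called higher than in neurons and 2 (Anxa5 and Anxa7) lower, where 33.3% and 34.1% of all genes were called, and the median was 0.21 against -0.07 over all genes. When yNSCs were set directly against NSCs, 5 members (Anxa1, Anxa2, Anxa4, Anxa5 and Anxa7) were called higher and 0 lower, where 21.3% and 18.0% of all genes were called, with a median of 2.10 against 0.07. The members were chosen with earlier results of these arrays known, so these counts describe these members and test nothing about them as a set. The comparisons with neurons share the neuron arrays and are given side by side.

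**Figure D1:**
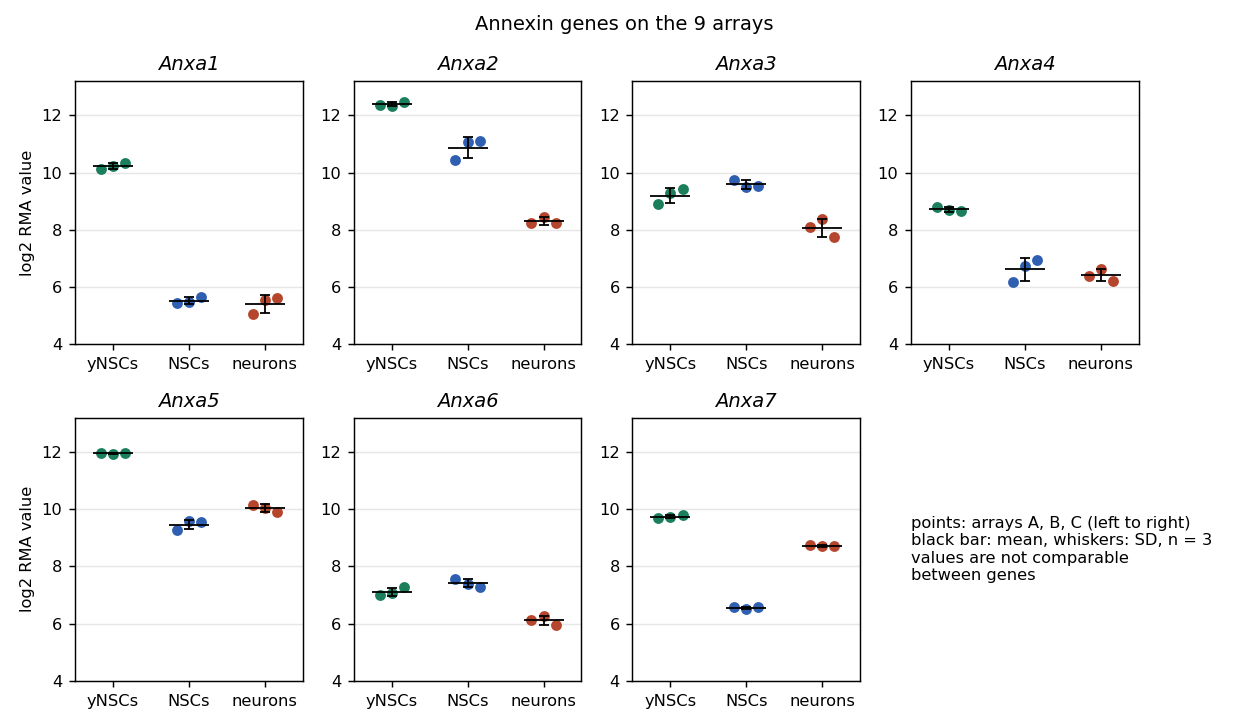
Log2 RMA value of the 7 measured annexin genes on each array, by group (yNSCs, NSCs, neurons), with points for replicates A, B and C and a black bar with whiskers for the mean and SD (n = 3). Anxa1 lay at 10.11 to 10.34 on the yNSC arrays and at 5.65 or below on all others, whereas Anxa3 and Anxa6 were high in yNSCs and NSCs alike relative to neurons.

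**Figure D2:**
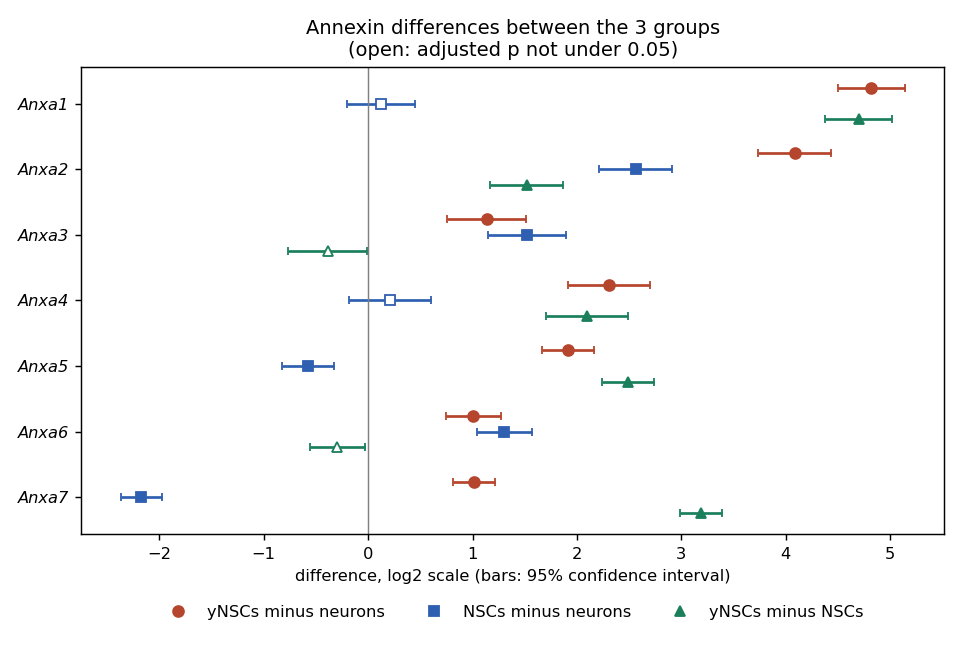
Difference between groups on the log2 scale for each measured annexin gene, with limma's 95% confidence interval, for yNSCs minus neurons (circles), NSCs minus neurons (squares) and yNSCs minus NSCs (triangles). Filled symbols passed an adjusted p of 0.05, and Anxa5 and Anxa7 are the genes with NSC values significantly below neurons and yNSC values above them.

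On its probe set of highest mean, Anxa1 was the member that differed most between yNSCs and the other groups. It encodes a glucocorticoid-induced protein that binds formyl peptide receptors and limits phospholipase A2, and it lies at 20373434 to 20390671 on chromosome 19 (GRCm38.p6, as are all positions here). Its level was 10.11, 10.22 and 10.34 on the yNSC arrays, 5.45, 5.48 and 5.65 on the NSC arrays and 5.04, 5.56 and 5.61 on the neuron arrays. The yNSC arrays lay far above all others, while NSCs and neurons overlapped. The difference was 4.82 between yNSCs and neurons (SE 0.148, a 28.3-fold rise, adjusted p = 6.51e-11) and 4.70 between yNSCs and NSCs (25.9-fold, adjusted p = 6.09e-10). NSCs and neurons differed by 0.12, with an interval of -0.20 to 0.45 (adjusted p = 0.477). A second Anxa1 probe set, 1444016_at, did not show the rise: it averaged 3.23 in yNSCs and 3.26 in NSCs, both near background, and 3.84 in neurons (adjusted p = 0.000231 for yNSCs against neurons, in the opposite direction). As the mean of both probe sets, the differences of Anxa1 were 2.11 for yNSCs against neurons and 2.34 against NSCs, both still called and both below those of Anxa4 on the same summary (2.53 and 2.46). Single probe sets were tested over all 34945, and their p-values are adjusted over these.

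Anxa2 showed a graded pattern. Its product forms a complex with S100a10, binds tissue plasminogen activator at the cell surface, and links membranes to actin. The gene lies at 69453683 to 69491792 on chromosome 9. Anxa2 stood at 12.37, 12.34 and 12.47 in yNSCs, 10.45, 11.07 and 11.10 in NSCs and 8.22, 8.46 and 8.25 in neurons. No 2 groups overlapped, and NSC replicate A was the lowest NSC array. yNSCs exceeded neurons by 4.08 (SE 0.160, 17.0-fold, adjusted p = 5.13e-10) and NSCs by 1.52 (2.87-fold, adjusted p = 1.08e-05), and NSCs exceeded neurons by 2.56 (5.91-fold, adjusted p = 2.83e-08). Among the other Anxa2 probe sets, 1437692_x_at averaged 6.12 in yNSCs, 5.70 in NSCs and 5.41 in neurons, and of its differences only that of yNSCs against neurons passed (0.70, adjusted p = 0.00306). The remaining Anxa2 probe set was near background in all 3 groups. As the mean of its 3 probe sets, Anxa2 differed by 1.61 between yNSCs and neurons, 0.98 between NSCs and neurons and 0.63 between yNSCs and NSCs, all called.

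RefSeq promoter sequences (GRCm38.p6) were available for 6 of the 8 genes, without Anxa3 and Anxa6. The 250 bases upstream of the annotated start are shown, 5′ to 3′ on the gene's strand, for Anxa1 and Anxa2, the members with the largest differences between yNSCs and neurons on the probe set of highest mean, and for Anxa5 and Anxa7, whose order in NSCs and neurons was the reverse of that of Anxa2. Capitals mark matches, on either strand, to GGAATG (the TEAD motif), TGANTCA (the AP-1 motif) or TATAAA (the TATA box). The windows are chr19:20390672-20390921 on the minus strand for Anxa1, chr9:69453433-69453682 on the plus strand for Anxa2, chr3:36475888-36476137 on the minus strand for Anxa5 and chr14:20480134-20480383 on the minus strand for Anxa7.
Anxa1: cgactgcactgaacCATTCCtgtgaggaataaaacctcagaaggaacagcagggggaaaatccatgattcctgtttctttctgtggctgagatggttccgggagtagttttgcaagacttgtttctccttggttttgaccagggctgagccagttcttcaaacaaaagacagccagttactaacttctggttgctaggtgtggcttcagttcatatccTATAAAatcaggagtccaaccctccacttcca
Anxa2: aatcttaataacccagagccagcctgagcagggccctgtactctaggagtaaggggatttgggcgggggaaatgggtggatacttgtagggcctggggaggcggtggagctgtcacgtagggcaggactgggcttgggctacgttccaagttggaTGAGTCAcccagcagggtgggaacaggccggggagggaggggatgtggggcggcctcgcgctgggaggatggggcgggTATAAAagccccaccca
Anxa5: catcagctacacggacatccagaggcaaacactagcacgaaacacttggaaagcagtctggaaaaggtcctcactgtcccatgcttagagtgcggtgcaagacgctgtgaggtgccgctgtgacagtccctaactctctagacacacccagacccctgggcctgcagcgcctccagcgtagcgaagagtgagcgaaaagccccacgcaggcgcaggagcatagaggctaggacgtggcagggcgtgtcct
Anxa7: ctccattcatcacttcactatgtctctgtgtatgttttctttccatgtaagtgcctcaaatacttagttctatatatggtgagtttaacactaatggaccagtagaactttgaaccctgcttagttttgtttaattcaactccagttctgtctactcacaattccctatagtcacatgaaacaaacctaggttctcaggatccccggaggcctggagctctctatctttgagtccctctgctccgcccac

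The Anxa1 window held a TEAD match, CATTCC, 236 to 231 bases before the start and a TATA match from 32 bases before it. In the Anxa2 window lay an AP-1 match, TGAGTCA, 95 to 89 bases before the start and a TATA match from 17 bases before it. These letters occurred in 12.6% (TEAD), 6.7% (AP-1) and 12.4% (TATA) of all 32851 promoter windows of the same length. The windows of Anxa4, Anxa5, Anxa7 and Anxa11 held none of them, including those at the further starts listed for Anxa4 and Anxa7. The windows also differed in base composition, with 46.0% GC and 2 CpG in Anxa1, 62.4% and 9 in Anxa2, and 58.8% and 13 in Anxa5. Anxa7 had 42.4% and 2 at its outer start, shown above, but 62.0% and 16 at its inner start. The medians over all windows were 52.4% and 6. The motifs were chosen with the annexin values known, and a match describes the letters of the window only.

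Anxa4, like Anxa1, was highest in yNSCs, with overlapping values in NSCs and neurons. The protein is an annexin of epithelial cells that associates with secretory membranes, and the gene lies at 86736840 to 86793634 on chromosome 6. Levels were 8.81, 8.70 and 8.65 in yNSCs, 6.17, 6.75 and 6.95 in NSCs and 6.40, 6.64 and 6.20 in neurons. All yNSC arrays were above all others. Anxa4 was 2.31 higher in yNSCs than in neurons (SE 0.181, 4.95-fold, adjusted p = 2.50e-07) and 2.10 higher than in NSCs (4.28-fold, adjusted p = 2.08e-06). The difference between NSCs and neurons was 0.21, with an interval of -0.19 to 0.61 (adjusted p = 0.322), but without NSC replicate A, the lowest NSC array, it was 0.44 and passed (adjusted p = 0.0166). All 3 Anxa4 probe sets were higher in yNSCs than in neurons, by 2.31, 3.08 and 2.21, and than in NSCs, by 2.10, 3.12 and 2.17, with 1457658_x_at near background in NSCs and neurons. In NSCs against neurons on all 9 arrays, 1424176_a_at gave -0.04 (limma adjusted p = 0.847) and 1457658_x_at 0.04 (adjusted p = 0.814). The mean of all 3 probe sets differed by 0.07 there (adjusted p = 0.693).

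In Anxa5 and Anxa7, yNSCs and NSCs lay on opposite sides of neurons. Anxa5 encodes the protein that binds exposed phosphatidylserine and is used to stain dying cells, and it lies at 36448923 to 36475887 on chromosome 3. It stood at 11.96, 11.94 and 11.97 in yNSCs, 9.27, 9.58 and 9.55 in NSCs and 10.16, 10.06 and 9.90 in neurons. The groups did not overlap, with yNSCs highest and NSCs lowest. Anxa5 rose by 1.92 in yNSCs relative to neurons (SE 0.114, 3.78-fold, adjusted p = 1.94e-08), fell by 0.57 in NSCs relative to neurons (1.49-fold, adjusted p = 0.000733), and was 2.49 higher in yNSCs than in NSCs (5.62-fold, adjusted p = 1.01e-08). Anxa5 was represented by a single probe set.

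Anxa7, or synexin, promotes membrane fusion in secretory cells and binds sorcin and Pdcd6, and its gene lies at 20455261 to 20480133 on chromosome 14. Anxa7 was at 9.70, 9.73 and 9.79 in yNSCs, 6.59, 6.50 and 6.57 in NSCs and 8.76, 8.70 and 8.72 in neurons. Replicates were tight, with an SD of at most 0.05 in each group, and the groups were far apart. Relative to neurons, Anxa7 rose by 1.01 in yNSCs (SE 0.0904, 2.02-fold, adjusted p = 8.09e-07) and fell by 2.17 in NSCs (4.51-fold, adjusted p = 7.74e-10). The gap between yNSCs and NSCs was 3.19 (9.11-fold, adjusted p = 3.21e-10), or 2.37 when its 3 probe sets were averaged. Probe set 1416137_at gave 1.22, -1.67 and 2.89 for the same 3 comparisons, all called. Probe set 1438764_at kept the lower level in NSCs (-1.01 against neurons) but not the rise of yNSCs over neurons (0.02, adjusted p = 0.906).

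Anxa3 and Anxa6 were higher in both stem cell groups than in neurons. Anxa3 encodes an inhibitor of phospholipase A2 that marks microglia among brain cells, and it lies at 96793385 to 96845968 on chromosome 5. Its values were 8.90, 9.27 and 9.42 in yNSCs, 9.75, 9.48 and 9.52 in NSCs and 8.08, 8.37 and 7.74 in neurons. Anxa3 rose by 1.13 in yNSCs (SE 0.172, 2.19-fold, adjusted p = 9.31e-05) and by 1.52 in NSCs (2.87-fold, adjusted p = 6.76e-06) relative to neurons. yNSCs lay 0.39 below NSCs without overlap, and this difference did not pass (unadjusted 95% interval -0.76 to -0.01, adjusted p = 0.0998).

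Anxa6 differs from its relatives in having a duplicated core, and it acts in cholesterol and endosome traffic. The gene lies at 54978953 to 55033471 on chromosome 11. The probe set of highest mean read 7.0, 7.09 and 7.27 in yNSCs, 7.57, 7.38 and 7.30 in NSCs and 6.12, 6.26 and 5.96 in neurons. The neuron arrays were lowest throughout. Anxa6 was 1.01 higher in yNSCs (SE 0.121, 2.01-fold, adjusted p = 1.18e-05) and 1.30 higher in NSCs (2.47-fold, adjusted p = 1.06e-06) than in neurons, and the 0.30 by which yNSCs lay under NSCs did not pass (unadjusted 95% interval -0.56 to -0.03, adjusted p = 0.0724). The 4 Anxa6 probe sets disagreed about yNSCs. All 4 were higher in NSCs than in neurons, by 0.45 to 1.33, whereas in yNSCs against neurons 1429246_a_at was higher (0.59), 1429247_at was lower (-0.54, adjusted p = 0.0448) and 1442288_at did not pass (-0.02). Against NSCs, yNSCs were lower on 1429247_at (-1.17) and on 1442288_at (-1.35). As the mean of all probe sets, Anxa6 no longer passed in yNSCs against neurons (0.26, adjusted p = 0.149) and was lower in yNSCs than in NSCs (-0.67, adjusted p = 0.00333). The parts of the transcript that these probe sets cover were not examined.

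**Figure D3:**
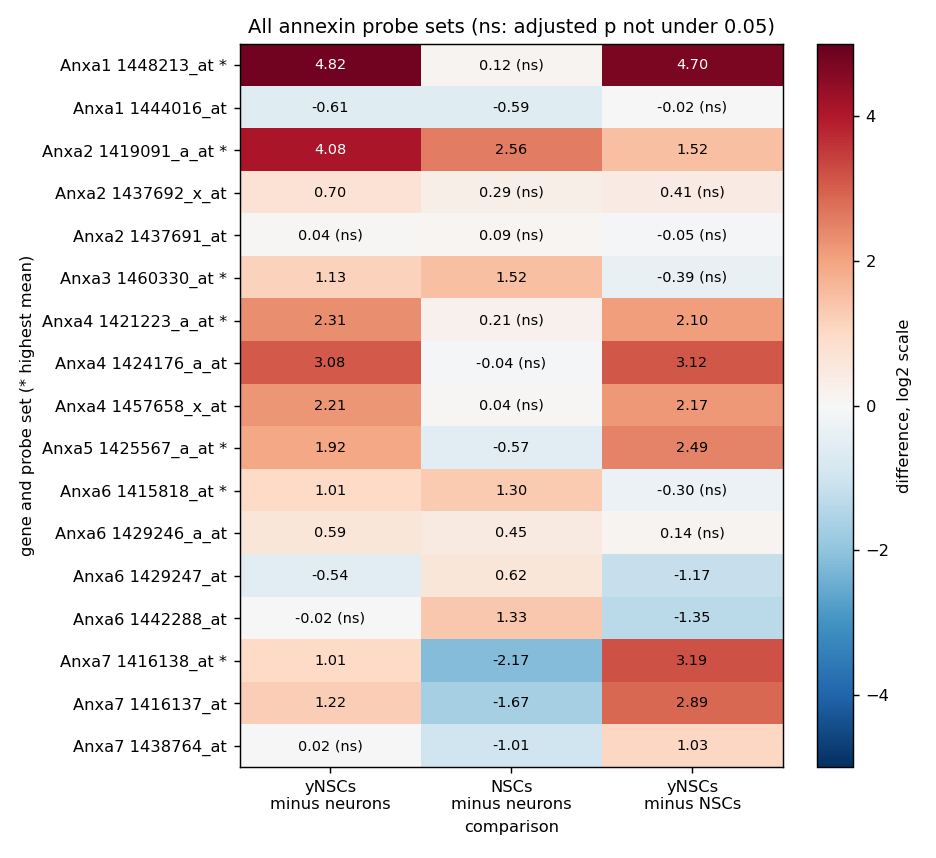
Differences on the log2 scale (colour and printed value) for all 17 annexin probe sets in the 3 comparisons, with an asterisk on the probe set of highest mean for each gene and ns where the adjusted p was not under 0.05. The probe sets of Anxa4 moved together, whereas those of Anxa1, Anxa2, Anxa6 and Anxa7 did not all follow the probe set of highest mean.

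The remaining annexin genes of the array, Anxa8, Anxa9, Anxa10 and Anxa13, showed no such rise. None of these 4 passed in yNSCs against neurons or against NSCs, with differences of -0.22 to 0.30 (limma, adjusted p = 0.0694 to 0.814). In NSCs, Anxa8 (-0.52, adjusted p = 0.00207) and Anxa10 (-0.40, adjusted p = 0.0253) were lower than in neurons, and Anxa10 and Anxa13 were near background in all 3 groups. Group means of Anxa8 (3.65 to 4.17) and Anxa9 (4.11 to 4.34) were also low, under every array median. Low signal limits what these probe sets can show, and the further probe sets of Anxa8 and Anxa10 were not examined.

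Genes whose products bind annexins were examined next. Partners, repair genes and markers are each given on their probe set of highest mean, and their other probe sets were not examined. Of 12 listed partners, 10 were measured, since the probe set of S100a11 also carries other symbols and Fpr1 had no named probe set. In yNSCs, 9 of the 10 were higher than in neurons and 0 lower (34.6% and 27.9% of all genes), with a median of 2.39 against -0.01 over all genes, and the exception was Fpr2, a receptor for Anxa1 (-0.21, adjusted p = 0.335). In NSCs, 5 were higher and 1 lower than in neurons (33.3% and 34.1% of all genes), with a median of 0.24 against -0.07. Against NSCs, 7 were higher in yNSCs and 0 lower (21.3% and 18.0% of all genes), with a median of 0.84 against 0.07. Without NSC replicate A, Plat also passed in that comparison and 1 was lower.

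S100a10, the partner of Anxa2, had values of 12.29, 12.31 and 12.39 in yNSCs, 11.33, 11.22 and 11.46 in NSCs and 10.65, 10.53 and 10.65 in neurons. Its groups stood in the same order as those of Anxa2 without overlap, and the differences were 1.72 for yNSCs and 0.73 for NSCs against neurons (adjusted p = 1.68e-08 and 3.93e-05). Plat, the tissue plasminogen activator bound by the Anxa2 complex, rose by 3.06 in yNSCs and by 3.30 in NSCs relative to neurons. Ahnak, a very large scaffold protein that binds the same complex, rose by 3.26 in yNSCs relative to neurons and was 3.67 higher than in NSCs, while NSCs and neurons differed by -0.41 (adjusted p = 0.0510).

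Larger differences were seen in other S100 genes. S100a6, which binds the heads of several annexins, stood at 11.40, 11.51 and 11.49 in yNSCs, 6.15, 6.09 and 5.79 in NSCs and 6.81, 6.81 and 6.44 in neurons, so that yNSCs exceeded neurons by 4.78 and NSCs by 5.46 (adjusted p = 2.67e-11 and 1.07e-10). S100a4 was 5.35 higher in yNSCs than in neurons and 4.82 higher than in NSCs. Pla2g4a, the cytosolic phospholipase A2 that releases arachidonic acid and that Anxa1 restrains, rose by 5.20 in yNSCs and by 2.40 in NSCs relative to neurons, and its 9 arrays fell into 3 separate groups. The partners of Anxa7 moved less. Pdcd6 (0.74), its relative Pef1 (0.55) and sorcin, encoded by Sri (0.73), rose in yNSCs relative to neurons, and of these only Sri passed in NSCs (0.43, adjusted p = 0.00559).

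Genes of plasma membrane repair, the process in which annexins seal calcium-exposed wounds, were examined in the same way. Of 13 such genes, 8 rose and 2 fell in yNSCs relative to neurons, where 34.6% and 27.9% of all genes did, with a median of 0.88 against -0.01. In NSCs, 4 rose and 4 fell relative to neurons, shares near those of all genes (33.3% and 34.1%), with a median of 0.08 against -0.07. Against NSCs, yNSCs had 6 of them higher and 2 lower (21.3% and 18.0% of all genes), with a median of 0.27 against 0.07. Without NSC replicate A, Dysf also rose in NSCs relative to neurons, and 5 were then higher. The ferlins Dysf and Myof rose by 1.58 and 2.26 in yNSCs relative to neurons and lay 1.39 and 2.19 above NSCs, whereas NSCs and neurons differed by 0.19 and 0.08, which did not pass (adjusted p = 0.203 and 0.616). The calpain subunits Capn2 and Capns1, proteases that act at wounds, rose by 2.06 and 1.24 in yNSCs, while Capn1 did not pass (-0.15, adjusted p = 0.410). Caveolin-1, encoded by Cav1, rose by 3.99 in yNSCs and by 2.42 in NSCs relative to neurons. Among ESCRT genes, Pdcd6ip, which encodes ALIX, rose by 1.40 in yNSCs and by 1.73 in NSCs relative to neurons and was lower in yNSCs than in NSCs (-0.33, adjusted p = 0.0415). Vps4b rose by 0.88 in yNSCs and by 1.14 in NSCs relative to neurons, while Chmp4b did not pass (-0.05, adjusted p = 0.673). Without NSC replicate A, Pdcd6ip no longer passed in yNSCs against NSCs, and Vps4b was called lower in yNSCs instead. Syt7, a calcium sensor of lysosome exocytosis, was lower in yNSCs (-3.24) and in NSCs (-0.64) than in neurons, and so was the acid sphingomyelinase gene Smpd1 (-0.32 in yNSCs and -0.51 in NSCs).

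**Figure D4:**
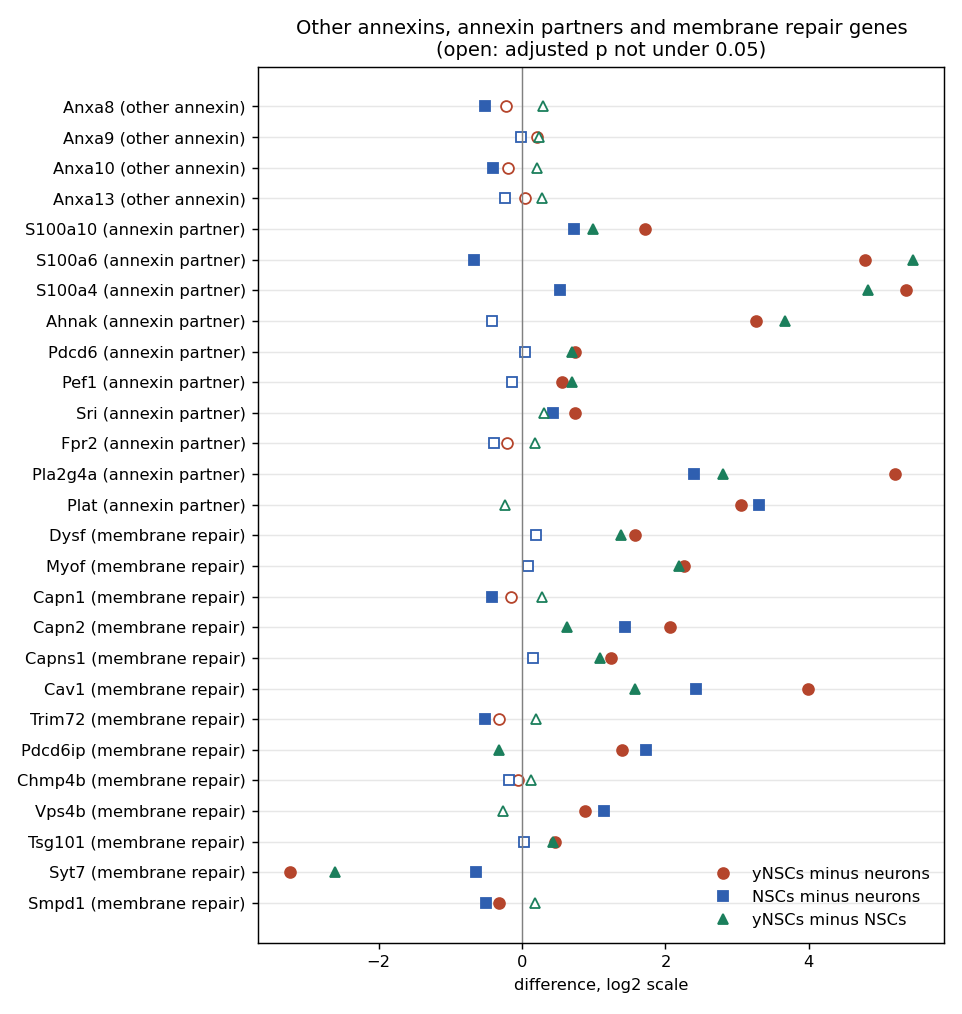
Differences on the log2 scale for the 4 other annexins, 10 measured annexin partners and 13 membrane repair genes, for yNSCs minus neurons (circles), NSCs minus neurons (squares) and yNSCs minus NSCs (triangles), filled where the adjusted p was under 0.05. S100a6 and S100a4 lie near 5 in both comparisons of yNSCs, and Syt7 lies below 0 in all 3.

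Markers of other cell types that the cultures could hold differed between the groups, and their part in the annexin differences was not tested. All 10 microglia and macrophage markers were lower in yNSCs and in NSCs than in neurons (27.9% and 34.1% of all genes), and their summed level was 9.31 to 9.54 in yNSCs, 7.36 to 7.50 in NSCs and 12.52 to 13.02 in neurons. On their probe sets of highest mean, all 7 annexins were higher in yNSCs than in neurons. Anxa5 and Anxa7 were lower in NSCs than in neurons and higher in yNSCs than in NSCs. In yNSCs against NSCs, 7 of the 10 microglia and macrophage markers were higher and 0 lower (21.3% and 18.0% of all genes). The largest difference was in the macrophage and lysosome gene Cd68 (4.20). The others called were Ctss (2.51), Tyrobp (1.60), C1qb (1.36), C1qa (1.21), Csf1r (1.16) and C1qc (0.66). Cx3cr1 (0.04), Aif1 (0.15) and Trem2 (0.10) did not pass. Aif1 was near background in yNSCs, and Aif1 and C1qb in NSCs. Of 9 mural cell and fibroblast markers, 3 rose and 5 fell in yNSCs relative to neurons (34.6% and 27.9% of all genes), and against NSCs, yNSCs had 4 higher and 3 lower (21.3% and 18.0% of all genes). Their summed level was 12.32 to 12.73 in yNSCs, 9.59 to 9.99 in NSCs and 8.97 to 9.07 in neurons. Those that rose in yNSCs relative to neurons were Tagln (6.21), Acta2 (4.83) and Rgs5 (0.40). Those that fell were Dcn (-3.11), Pdgfrb (-0.44) and the fibroblast collagen genes Col1a1 (-0.43), Col1a2 (-0.35) and Col3a1 (-0.59). Col3a1 and Lum were near background in yNSCs. Among 6 astrocyte markers, 5 were higher in yNSCs than in NSCs and 0 lower (21.3% and 18.0% of all genes), 3 rose and 1 fell in yNSCs relative to neurons (34.6% and 27.9%; 2 fell without NSC replicate A, Aqp4 being added), and 1 rose and 4 fell in NSCs relative to neurons (33.3% and 34.1%). Gfap, the intermediate filament of astrocytes, differed from neurons by 1.61 in yNSCs and by -3.81 in NSCs. No other astrocyte marker was called higher in yNSCs and lower in NSCs than in neurons. Aldh1l1 was higher in both (1.64 and 1.68) and Slc1a2 lower in both (-1.57 and -2.81). Aqp4 (-0.82 and -5.65) and Slc1a3 (-0.23 and -1.38) did not pass in yNSCs and were lower in NSCs. Gja1 was higher in yNSCs (0.80) and did not pass in NSCs (-0.12). The summed astrocyte level was 13.19 to 13.39 in yNSCs, 12.13 to 12.46 in NSCs and 13.08 to 13.17 in neurons. Of 4 oligodendrocyte precursor markers, 2 rose and 2 fell in yNSCs relative to neurons (34.6% and 27.9% of all genes). In NSCs, 3 rose and 1 fell relative to neurons (33.3% and 34.1%). Against NSCs, 0 were higher and 3 lower in yNSCs (21.3% and 18.0%). Their summed level was 13.08 to 13.11 in yNSCs, 13.30 to 13.51 in NSCs and 12.08 to 12.11 in neurons. The lineage factors Olig1 (1.19 in yNSCs and 1.29 in NSCs) and Olig2 (1.97 in yNSCs and 2.70 in NSCs) were above neurons in both. Pdgfra was below neurons in both (-5.57 in yNSCs and -2.46 in NSCs). Cspg4 was lower than in neurons in yNSCs (-0.63) and higher in NSCs (1.57). Of 4 ependymal and choroid plexus markers, 3 rose and 1 fell in yNSCs relative to neurons (34.6% and 27.9% of all genes). In NSCs, 1 rose and 1 fell relative to neurons (33.3% and 34.1%). Against NSCs, 2 were higher and 0 lower in yNSCs (21.3% and 18.0%). Their summed level was 7.94 to 8.14 in yNSCs, 7.48 to 7.58 in NSCs and 7.74 to 8.24 in neurons. The 6 endothelial markers had a summed level of 6.27 to 6.49 in yNSCs, 6.49 to 6.56 in NSCs and 6.41 to 6.67 in neurons, and Pecam1, Tek and Emcn were near background in all 3. Signal from the 3′ end of control Actb exceeded that from its 5′ end by 0.19 to 0.31 in yNSCs, 0.56 to 0.70 in NSCs and 0.03 to 0.21 in neurons, and the part of RNA quality was not tested either.

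To place each annexin among the other genes, profiles over the 9 arrays were centred on their own mean and compared by the root mean square difference, a description without a test. Nearest to Anxa1 were Fosl1, which encodes an AP-1 subunit (0.18), the metalloproteinase gene Mmp3 (0.26) and the interferon-induced Gbp2 (0.29). Fosl1 averaged 8.80 in yNSCs, 4.11 in NSCs and 4.27 in neurons. The nearest genes to Anxa2 were Cav1 (0.13), which is also on the repair list, Ecrg4 (0.16) and Haus3 (0.18). For Anxa4 the nearest were Gsto2 (0.10), Lrrc51 (0.16) and, from the repair list, Myof (0.19). Closest to Anxa3 was the glial transcription factor Sox9 (0.13), followed by Anxa6 (0.14). For Anxa5 the nearest was Tuba8 (0.16), for Anxa6 Rad54l2 (0.10) and for Anxa7 Fbxo2, an F-box gene (0.21), followed by S100a1 (0.22), a calcium-binding protein. All pairs named here correlated at 0.98 or above over the 9 arrays (Pearson), which fall into 3 groups, so that likeness mostly reflects the order and spacing of 3 group means.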

How the data were processed

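RNA from 9 arrays (3 yNSC, 3 NSC, 3 neuron) was analysed from the deposited log2 values, 1 per probe set, which the authors made with RMA per the labels' processing notes. The version used, and which arrays were normalized jointly, were not given in the sources used here. Probe sets were named through the array annotation, with symbols updated by gene ID (34741 of 34945 single-symbol probe sets matched RefSeq on GRCm38.p6). Those with several symbols (932), with none (9160) and 64 controls were left out. Each of 18193 genes was represented by its probe set of highest mean.

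With limma 3.58.1 (R 4.3.3), 3 group means were estimated per gene from the 9 arrays together (6 residual and 5.59 prior degrees of freedom), with Benjamini-Hochberg adjustment over all genes and no fold minimum. The fit was tested on simulated data. The array number limits the precision. The test sets each difference of group means against the spread between these replicates, moderated by a prior from all genes. Members, lists, motifs and alternatives were chosen with earlier results of these data known. Genes named are the members, other annexins, listed partners, repair genes and markers, and those among the 3 genes nearest each member. Alternatives were a replicate block, 6 arrays per comparison, 2 rescalings, a filter on low means, other probe sets, another variance prior, a 2-fold minimum and leaving out each array. Partner, repair and marker counts without NSC replicate A were added after seeing the data.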

Additional observations from a re-analysis of the deposited data

Results flagged for a closer look

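Anxa5 and Anxa7 stood out because the effect against neurons ran in opposite directions in yNSCs and in NSCs, and the difference between these effects, which equals yNSCs minus NSCs, passed limma's test. It was 2.49 for Anxa5 (adjusted p = 1.01e-08), with differences against neurons of 1.92 in yNSCs and -0.57 in NSCs. For Anxa7 it was 3.19 (adjusted p = 3.21e-10), with differences of 1.01 and -2.17. On the probe sets of highest mean, all 3 yNSC arrays lay above all neuron arrays and all 3 NSC arrays below them for both genes. On the Anxa7 probe set 1438764_at, yNSC and neuron arrays overlapped (0.02, limma adjusted p = 0.906). On leaving out each array, the gap between yNSCs and NSCs ran from 2.39 to 2.55 for Anxa5 and from 3.16 to 3.21 for Anxa7, where averaging its 3 probe sets gave 2.37.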

How the results depend on the processing

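The number of annexin genes called stayed within 1.5 times that of the fit to all 9 arrays under every alternative. It was 6 or 7 for yNSCs against neurons, 4 to 6 for NSCs against neurons and 5 or 6 for yNSCs against NSCs, where the extremes came from the mean of all probe sets, a 2-fold minimum, or leaving out NSC replicate A. With the replicate letter as a block (replicate block), 7, 5 and 5 were called and no call changed. Deviations of same-lettered arrays correlated at -0.11 to 0.10, so the letters were not taken to pair the samples. Leaving out 1 array changed 1 of 189 gene results, Anxa4 in NSCs against neurons. Subtracting array medians put the median of all genes at 0.08, -0.02 and 0.11 and changed no annexin call. With the lowest 40% of genes left out, 10916 genes were tested, and over all genes 2901 were then lower in yNSCs than in neurons (5081 before), 3093 lower in NSCs than in neurons (6206 before), with no annexin call changed.

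Single probe sets mattered more. Taken alone, 2 gave a called difference in the opposite direction for yNSCs against neurons, 1444016_at for Anxa1 (-0.61, adjusted p = 0.000231) and 1429247_at for Anxa6 (-0.54, adjusted p = 0.0448). In comparisons called on the probe set of highest mean, a further 3 values had the opposite sign but did not pass: 1444016_at for Anxa1 in yNSCs against NSCs (-0.023, adjusted p = 0.884), 1437691_at for Anxa2 in the same comparison (-0.047, adjusted p = 0.787) and 1442288_at for Anxa6 in yNSCs against neurons (-0.017, adjusted p = 0.952). Where that probe set did not pass, the sign also differed for Anxa1 in NSCs against neurons (1444016_at, -0.59, limma adjusted p = 0.000291). It differed without passing for Anxa4 in NSCs against neurons (1424176_a_at, -0.043) and Anxa6 in yNSCs against NSCs (1429246_a_at, 0.14). The cause was not tested. 1444016_at was near background in yNSCs and NSCs, and 1437691_at in all groups, which limits what they can show.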
